A study of Homo sapiens with 6 samples.

Results

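Metallothioneins are small, cysteine-rich proteins that bind zinc and copper and buffer their free concentration in the cell. Their genes are switched on by MTF1, a zinc-sensing transcription factor that binds metal response elements in promoters, and glucocorticoids and oxidative stress can also raise them. SLC30A1 is the zinc exporter of the plasma membrane, and its gene is another known target of MTF1. Expression of 9 genes of this system was described, the metallothioneins MT1A, MT1E, MT1F, MT1G, MT1M, MT1X and MT2A together with MTF1 and SLC30A1. They were chosen by symbol, and each matched 1 of the 63241 Ensembl genes in the count files. The cells were MDA-MB-231, an established line of triple-negative breast cancer, wild type by label, exposed for 24 h to 5 μM nitidine chloride (NCD, a plant benzophenanthridine alkaloid) or to 0.1% DMSO as vehicle. The free text of NCD replicates 2 and 3 numbers the line differently, while their cell line field names MDA-MB-231, which was used. Each of the 2 groups had 3 libraries, and the labels do not say whether these came from separate cultures, so p-values measure the spread between these libraries only. In bulk RNA, fewer cells with a transcript and less of it per cell cannot be told apart.

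Library totals ran from 18223594 to 21629653 counts. VIM, CD44, AXL, KRT8 and KRT18, which MDA-MB-231 is known to express, were at 261 CPM or more in every library (CPM, counts as a rate on library sizes scaled by the TMM method of edgeR), and the hormone receptor genes ESR1 and PGR had at most 7 counts. The first group also differed in level between treatments, with means in DMSO and NCD of 977 and 277 CPM for CD44, 856 and 399 for AXL, 3056 and 2638 for VIM, 412 and 596 for KRT8 and 399.6 and 483 for KRT18. ERBB2 mRNA was at 35.2 to 62.6 CPM. Of the markers of other cells, PTPRC, CD3E and PECAM1 were below 1 CPM, while the fibroblast genes COL1A1 and PDGFRB averaged 2.86 and 1.79 CPM with DMSO and 13.6 and 5.74 CPM with NCD, and the part of these differences in the results was not tested. DMSO replicate 2 and NCD replicate 3 stood apart from the others of their groups. Their counts differed from those of either other library by a chi-square of at least 7.88 and 12.9 per degree of freedom, compared with 4.17 and 2.05 for the remaining pairs. Each tested member is therefore also given without these libraries.

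The expressed metallothioneins were lower with NCD, and MTF1 and SLC30A1 were higher. MT2A, MT1E and MT1X, which made up nearly all metallothionein counts, fell to 37.9%, 38.4% and 40.01% of their DMSO levels, and MT1F fell to 65.1%. MTF1 and SLC30A1 rose 1.54-fold and 1.55-fold. Of the 9 genes, 6 passed the filter on low counts and were among the 15295 genes tested by the quasi-likelihood method of edgeR. All 6 passed a Benjamini-Hochberg adjusted p of 0.05, 4 lower and 2 higher, at which 69.3% of all tested genes passed (34.1% lower and 35.3% higher). With an absolute log2 fold change above 1 required as well, 3 were called, MT2A, MT1E and MT1X, each of them lower. By that rule 31% of all tested genes were called, 17.5% lower and 13.5% higher. Higher genes were 43.6% of these calls, and 56.2% when library totals replaced TMM, a scaling under which the log2 values of all genes moved by 0.20 at the median. The median log2 fold change of the 6 members was -0.97, against 0.04 over all tested genes. It falls between MT1F at -0.62 and MT1X at -1.32 and describes no single member, with MTF1 and SLC30A1 both at 0.63.

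Promoter entries in the RefSeq table (build GRCh38.p14) matched 4 of the 9 genes, MT2A, MT1X, SLC30A1 and MTF1. The 250 bases before each RefSeq start are printed because MTF1 is known to bind metal response elements in such promoters. Capitals mark the core of that element, searched as TGCACNC and TGCGCNC on both strands, and no matches overlapped. Sequences run 5′ to 3′ on the strand of the gene, at chr16:56608334-56608583 (plus strand) for MT2A, chr16:56682220-56682469 (plus) for MT1X, chr1:211579162-211579411 (minus) for SLC30A1 and chr1:37859593-37859842 (minus) for MTF1. The GENCODE release 29 starts differ from these. They lie 385 bases further upstream for MT2A, whose whole window is thus inside the GENCODE gene, 46 for MT1X and 28 for MTF1, whose windows run that far into it, and for SLC30A1 the RefSeq start is 419 bases upstream of the GENCODE start.
MT2A: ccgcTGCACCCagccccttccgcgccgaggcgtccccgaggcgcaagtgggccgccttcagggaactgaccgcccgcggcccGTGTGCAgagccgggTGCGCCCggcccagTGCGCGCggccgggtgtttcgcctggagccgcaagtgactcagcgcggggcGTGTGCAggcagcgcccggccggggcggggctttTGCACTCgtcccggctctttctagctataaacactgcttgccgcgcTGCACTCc
MT1X: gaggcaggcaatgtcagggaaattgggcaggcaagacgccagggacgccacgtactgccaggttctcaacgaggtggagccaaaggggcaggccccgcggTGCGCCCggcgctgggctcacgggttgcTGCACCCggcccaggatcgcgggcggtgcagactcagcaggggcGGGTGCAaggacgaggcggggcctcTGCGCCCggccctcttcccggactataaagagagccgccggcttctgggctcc
SLC30A1: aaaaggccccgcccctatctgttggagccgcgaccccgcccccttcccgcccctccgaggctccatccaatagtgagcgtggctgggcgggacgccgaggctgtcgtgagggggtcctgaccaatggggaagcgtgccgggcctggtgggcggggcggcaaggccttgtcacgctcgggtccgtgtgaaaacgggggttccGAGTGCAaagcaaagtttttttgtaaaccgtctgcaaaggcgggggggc
MTF1: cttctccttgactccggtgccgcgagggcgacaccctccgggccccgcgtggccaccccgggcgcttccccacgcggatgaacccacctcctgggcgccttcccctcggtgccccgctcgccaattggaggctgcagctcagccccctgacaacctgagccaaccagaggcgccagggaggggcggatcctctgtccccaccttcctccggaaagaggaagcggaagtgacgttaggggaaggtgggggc
MT2A held 7 cores and MT1X held 4, and SLC30A1 held 1, at 49 bases before the RefSeq start. No core was found in the MTF1 window, which says only that these letters are not there. Among 35116 RefSeq promoter windows of the same length, 24.8% held at least 1 core, 0.37% at least 4 and 0.0313% at least 7. MT1H, a metallothionein without a count in any library, held 8.

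**Figure D1:**
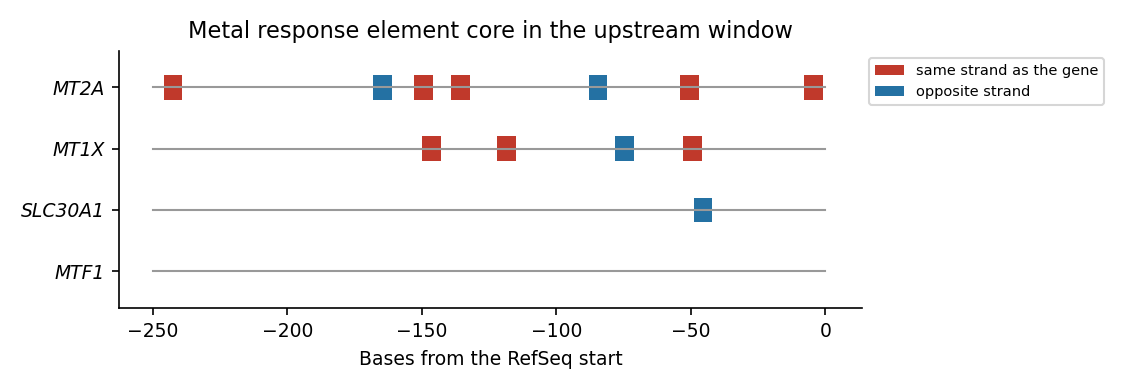
Position of each match to the metal response element core in the 250 bases before the RefSeq start of 4 genes, with the x axis in bases from the start and the colour giving the strand of the match. MT2A has 7 matches between 246 and 8 bases before its start, MT1X has 4, SLC30A1 has 1 and MTF1 has none.

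MT2A (ENSG00000125148; chromosome 16, 56608199 to 56609497, plus strand in GENCODE release 29, GRCh38), the most abundant metallothionein of these cells, was at 970.2, 831 and 864 CPM in the vehicle libraries and 354, 384 and 272 CPM after NCD. The lowest DMSO value exceeded the highest NCD value by more than the SD within either group. The group means were 888 ± 72.7 and 337 ± 57.9 CPM (SD, n = 3 each). The log2 fold change was -1.40 ± 0.12 (SE; edgeR adjusted p = 9.36e-06). It was -1.45 without DMSO replicate 2 and -1.28 without NCD replicate 3.

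MT1E (ENSG00000169715; chromosome 16, 56625475 to 56627112, plus strand), the next in abundance, was at 288, 233 and 237 CPM in DMSO and 101, 108 and 82.1 CPM in NCD. The groups did not overlap, and DMSO replicate 1 was highest and NCD replicate 3 lowest, as for MT2A. The mean fell from 253 ± 30.9 to 97.1 ± 13.5 CPM (SD, n = 3 each), a log2 fold change of -1.38 ± 0.12 (SE; edgeR adjusted p = 7.25e-06). Leaving out DMSO replicate 2 gave -1.45, and leaving out NCD replicate 3 gave -1.29.

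MT1X (ENSG00000187193; chromosome 16, 56682424 to 56684196, plus strand), at the far end of the cluster, was at 63.5, 57.8 and 67.7 CPM in DMSO and 26.1, 28.7 and 20.9 CPM in NCD. Every NCD library lay below every DMSO library. Means were 63.0 ± 4.96 and 25.2 ± 3.94 CPM (SD, n = 3 each), and the log2 fold change was -1.32 ± 0.12 (SE; edgeR adjusted p = 1.01e-05), or -1.39 and -1.22 without DMSO replicate 2 and NCD replicate 3. The annotated gene AC026461.1 overlaps MT1X on the same strand and had 0 counts in every library.

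MT1F (ENSG00000198417; chromosome 16, 56657694 to 56660698, plus strand) was far less abundant, with 141, 110 and 137 counts in DMSO and 115, 108 and 83 in NCD. In CPM these were 8.497, 6.22 and 7.51 against 5.02, 5.59 and 3.87, so DMSO replicate 2 and NCD replicate 2 came close without overlapping. The log2 fold change of -0.62 ± 0.18 (SE) passed the adjusted p of edgeR (adjusted p = 0.0122) and not the fold threshold. Scaled by library totals it was -0.42 with edgeR adjusted p = 0.051, and no longer passed. It was -0.74 without DMSO replicate 2 and -0.50 without NCD replicate 3.

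**Figure D2:**
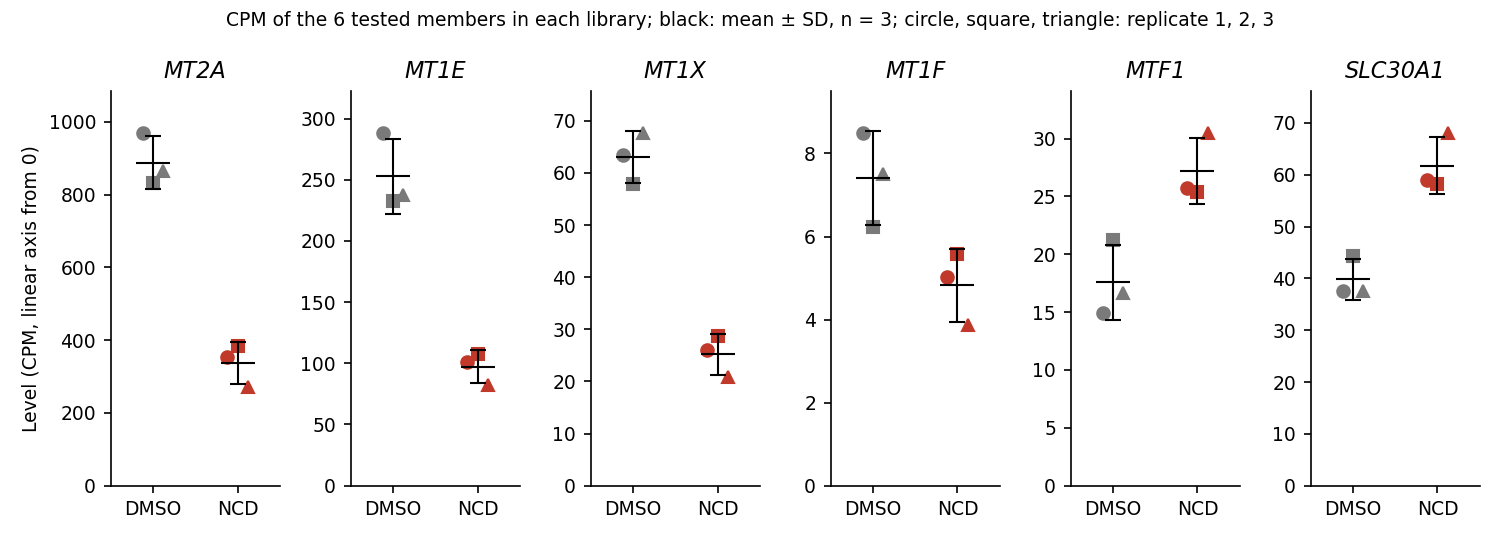
CPM of the 6 tested genes in each library on linear axes that start at 0, with grey points for DMSO, red points for NCD, a different marker for each replicate number, and the mean ± SD (n = 3) in black. All NCD points lie below all DMSO points for MT2A, MT1E, MT1X and MT1F, and above them for MTF1 and SLC30A1.

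MTF1 (ENSG00000188786; chromosome 1, 37809567 to 37859620, minus strand), the metal-sensing activator, was at 14.9, 21.2 and 16.6 CPM in DMSO and 25.7, 25.4 and 30.5 CPM in NCD. DMSO replicate 2 was the highest of its group and still below every NCD library. The mean rose from 17.6 ± 3.25 to 27.2 ± 2.87 CPM (SD, n = 3 each), a log2 fold change of 0.63 ± 0.14 (SE; edgeR adjusted p = 0.00295). This was 0.77 without DMSO replicate 2 and 0.52 without NCD replicate 3.

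SLC30A1 (ENSG00000170385; chromosome 1, 211571568 to 211578742, minus strand), the exporter, was at 37.6, 44.3 and 37.5 CPM in DMSO and 58.9, 58.2 and 68.1 CPM in NCD. DMSO replicate 2 and NCD replicate 3 were the highest of their groups, as for MTF1, and the groups did not overlap. The mean rose from 39.8 ± 3.90 to 61.7 ± 5.50 CPM (SD, n = 3 each), a log2 fold change of 0.63 ± 0.10 (SE; edgeR adjusted p = 0.000304), or 0.71 and 0.54 without these libraries in turn. Both rises were under the fold threshold with edgeR and with DESeq2, where the log2 fold changes of MTF1 and SLC30A1 were both 0.61.

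The groups did not overlap in any of the 6 tested genes, 4 with NCD below DMSO, as in 35.3% of all tested genes, and 2 with NCD above DMSO, as in 37.2% of all tested genes. Exact two-sided permutation tests on CPM, 3 against 3 libraries, gave p = 0.1 for each of the 6, the smallest this design allows. DMSO replicate 2 was the lowest DMSO library for MT2A, MT1E, MT1X and MT1F and the highest for MTF1 and SLC30A1, and NCD replicate 3 held the same places among the NCD libraries. These are also the libraries that stood apart, and their part in this order was not tested. For each SLC30A1 count there were 25.8, 18.8 and 23.1 MT2A counts in DMSO and 6.01, 6.60 and 4.001 in NCD. The SLC30A1 to MTF1 count ratio was 2.52, 2.09 and 2.26 in DMSO and 2.29, 2.30 and 2.23 in NCD, values that overlap.

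**Figure D3:**
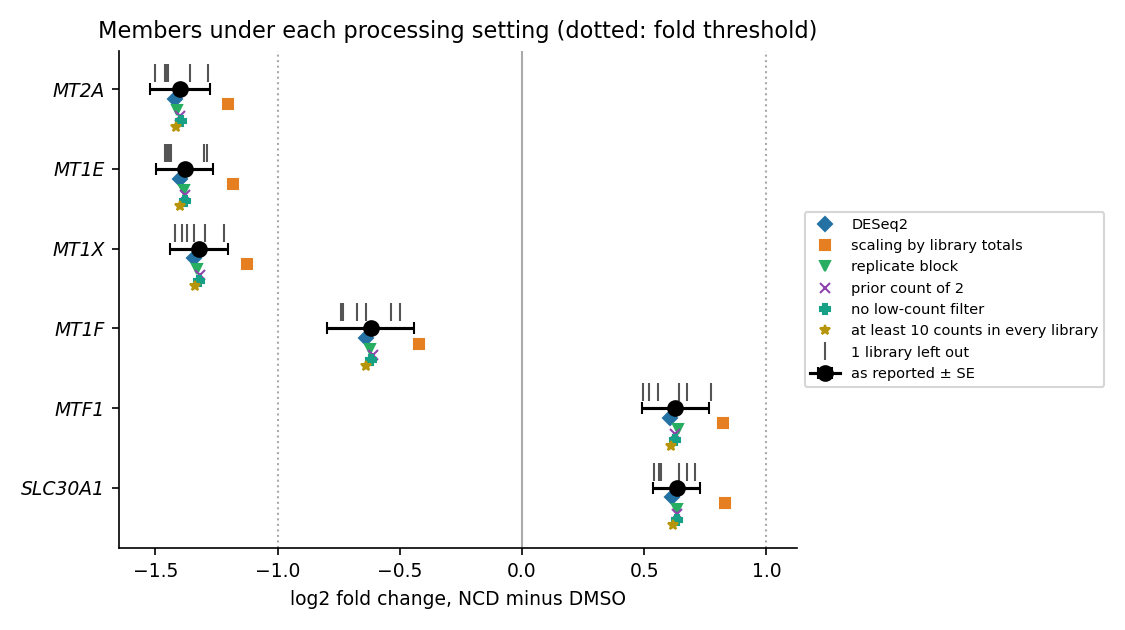
Log2 fold change (NCD minus DMSO) of the 6 tested genes as reported (± standard error), under other settings (symbols) and with 1 library left out (ticks), with dotted lines at the fold threshold. MT2A, MT1E and MT1X lie below -1 under every setting drawn, MT1F, MTF1 and SLC30A1 lie between the dotted lines, and library totals move every gene to the right.

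The remaining metallothioneins were at or near 0. MT1A had 7, 10 and 7 counts in DMSO and 6, 3 and 10 in NCD, too few for the test. Its ratio of NCD to DMSO by library totals was 0.748 with an exact 95% interval of 0.388 to 1.43, which covers counting error only and includes 1, so this depth could not show a difference. MT1G and MT1M had 0 counts in all 6 libraries, which allows at most 0.139 to 0.165 CPM per library (3 counts of each total). Of 15 identifiers of other metallothionein genes and pseudogenes, 12 also had 0 counts in every library, including MT1H and MT4, a form known from stratified epithelium. MT1B had at most 5 counts in a library and MT3, the brain form, 1 count in all. The pseudogene MT1JP (ENSG00000290662) was the only one of the 15 tested, with 27, 12 and 11 counts in DMSO and 8, 10 and 0 in NCD. Its log2 fold change of -1.73 ± 0.73 (SE; edgeR adjusted p = 0.0609) was not called, though it was called lower without the low-count filter, with the replicate number as a block and without NCD replicate 2.

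Metallothionein transcripts are alike, and RSEM divides reads that match several of them, so single members are less certain than their sum. Of the stretches of 50 bases in the annotated transcripts (GENCODE release 29), 3.02% for MT2A, 7.1% for MT1E, 18.3% for MT1X and 1.22% for MT1F also occur in another gene. At 100 bases only MT1X among the 9 had any, 11.3%, all shared with AC026461.1. The read length is not given in the sources used here. Summed over all metallothionein identifiers the level was 1333, 1129 and 1178 CPM in DMSO and 487, 527 and 379.8 CPM in NCD, and the lowest DMSO library was above the highest NCD library. The mean was 1213 ± 106 against 465 ± 76.3 CPM (SD, n = 3 each), a log2 ratio of -1.38 that does not depend on how reads were divided within the family. As a share of all counts of a library the family took 0.107% to 0.121% with DMSO and 0.0414% to 0.0559% with NCD.

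Within this pool the shares of the abundant members stayed close. MT2A was 73.2% ± 0.406 of the metallothionein counts in DMSO and 72.4% ± 0.623 in NCD (SD, n = 3 each; exact permutation p = 0.2), an NCD minus DMSO difference of -0.831 percentage points. MT1E was 20.8% ± 0.762 and 21.0% ± 0.582 (exact permutation p = 0.8), and MT1X 5.21% ± 0.497 and 5.43% ± 0.0800 (exact permutation p = 0.6). The share of MT1F was 0.638%, 0.551% and 0.637% in DMSO and 1.03%, 1.06% and 1.02% in NCD. It was higher in every NCD library, with an exact permutation p = 0.1, the smallest possible for 3 against 3, and no 95% Wilson interval of a DMSO library (counting error only) reached that of an NCD library.

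**Figure D4:**
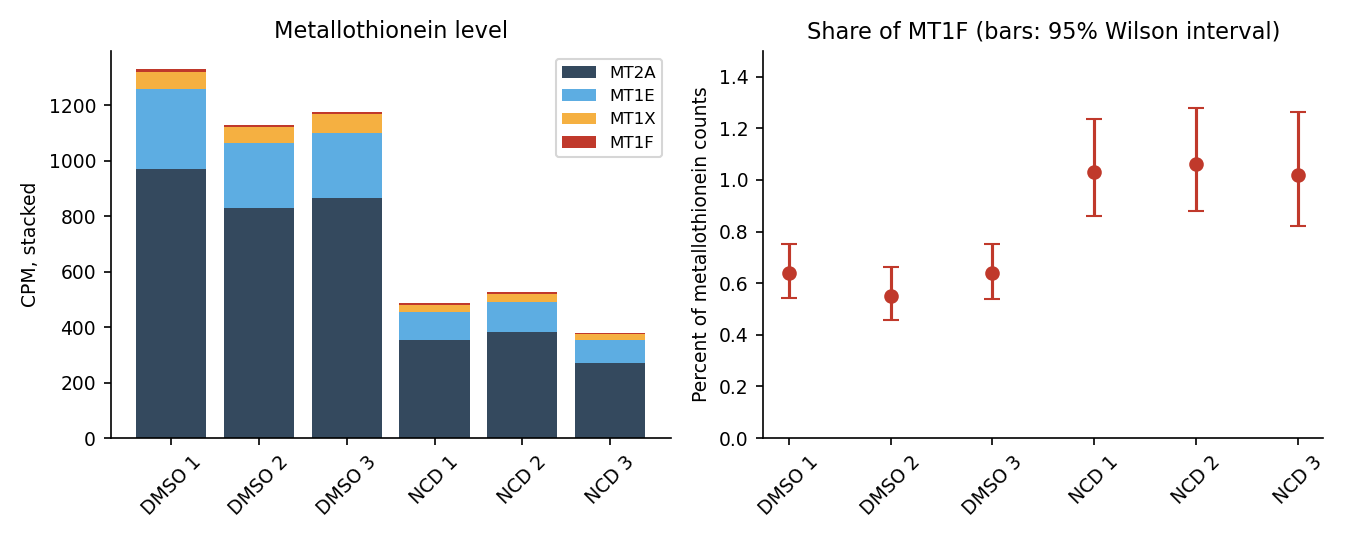
Left, CPM of MT2A, MT1E, MT1X and MT1F stacked for each library, from 0. Right, MT1F as a percent of all metallothionein counts in each library with its 95% Wilson interval, at 0.551% to 0.638% with DMSO and 1.02% to 1.06% with NCD.

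Levels of different genes were compared per kilobase of the principal transcript, an approximation where several transcripts are made. In DMSO the order was MT2A at 1130.4 ± 92.5 CPM per kb (SD, n = 3), MT1E at 359 ± 43.8, MT1X at 140.0 ± 11.0, MT1F at 10.7 ± 1.65, SLC30A1 at 7.27 ± 0.712, MTF1 at 2.21 ± 0.408 and MT1A at 1.15 ± 0.243 CPM per kb. In NCD it was MT2A at 429 ± 73.7, MT1E at 138 ± 19.1, MT1X at 56.1 ± 8.74, SLC30A1 at 11.3 ± 1.00, MT1F at 6.996 ± 1.27, MTF1 at 3.41 ± 0.361 and MT1A at 0.744 ± 0.399 CPM per kb. By this measure SLC30A1 and MT1F changed places, an order that depends on the length used. MT1F has 690 bases in its principal transcript and 1889 in all its annotated exons. In plain CPM SLC30A1 was above MT1F in both groups, at 39.8 and 7.41 in DMSO and 61.7 and 4.83 in NCD. In both groups every gene differed from its neighbour in the per-kilobase order by more than the sum of their SDs, which cover no error in the lengths.

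The metallothionein cluster spans 119 kb on chromosome 16 (56565049 to 56684196). Genes outside the family were taken by position, after member values were seen, as all tested genes within 250 kb on either side. Of these 7 neighbours, 2 were called lower and 1 higher, with log2 fold changes from -1.62 to 1.41 and a median of -0.19. Over all tested genes 17.5% were called lower and 13.5% higher. The nearest on either side were BBS2, a gene of the cilium, at -0.95 ± 0.09 (SE; edgeR adjusted p = 1.66e-05) and NUP93, a nuclear pore gene, at -1.62 ± 0.06 (adjusted p = 5.72e-08). OGFOD1, which overlaps BBS2, was at 0.50 ± 0.05 (edgeR adjusted p = 3.33e-05), so genes on that flank moved in both directions. MT2A, the shortest tested member, spans 1.30 kb, and the 1970 tested genes under 5 kb had a median log2 fold change of 0.27, with 8.07% called lower and 20.1% higher. SLC30A1 spans 7.17 kb, where genes of 5 to 10 kb had a median of 0.38, with 3.94% lower and 21.7% higher. MTF1 spans 50.1 kb, where genes of 40 to 60 kb had a median of -0.03, with 7.25% lower and 8.51% higher.

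Other zinc transporters moved in both directions. Most SLC30A transporters move zinc out of the cytosol. Of the 9 besides SLC30A1, 6 were tested, 2 called higher and 1 lower, with a median log2 fold change of 0.07. These calls were 50% of the tested genes of this list, against 31% of all tested genes. SLC30A3, which loads vesicles, was at 2.47, 2.04 and 2.80 CPM in DMSO and 15.4, 15.004 and 14.6 CPM in NCD, a rise far beyond the spread (2.62 ± 0.14 on the log2 scale, SE; edgeR adjusted p = 3.23e-07). SLC30A4, another vesicle transporter, rose by 1.24 ± 0.13 (edgeR adjusted p = 2.25e-05). SLC30A9 was called lower, at 114, 116 and 109 CPM in DMSO against 36.5, 37.9 and 42.8 CPM in NCD (-1.53 ± 0.08, edgeR adjusted p = 2.58e-07). SLC30A9 spans 100 kb, against 22.1 kb for SLC30A3 and 43.2 kb for SLC30A4, and the part of gene length was not tested. SLC30A5, a transporter of the secretory pathway and the most abundant of those not called, had a log2 fold change of 0.59 ± 0.06 (edgeR adjusted p = 2.56e-05).

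SLC39A transporters bring zinc into the cytosol. Of 14 genes 11 were tested and 2 were called lower, with a median log2 fold change of -0.19 (0.04 over all tested genes). These calls were 18.2% of the tested importers. Over all tested genes 31% were called in either direction and 17.5% lower. SLC39A11 was at 9.22, 9.62 and 11.2 CPM in DMSO and 0.874, 0.466 and 0.699 CPM in NCD (-3.85 ± 0.21 on the log2 scale, SE; edgeR adjusted p = 4.65e-07). With at least 10 counts required in every library, 1 gene of the list was called lower. SLC39A11, with 9 counts in NCD replicate 2, was not tested in that fit. SLC39A10, an importer of the plasma membrane, had a log2 fold change of -1.22 ± 0.12 (edgeR adjusted p = 1.80e-05). SLC39A11 spans 447 kb and SLC39A10 162 kb, and the part of gene length in these falls was not tested. The most abundant, SLC39A1, averaged 150.4 ± 8.20 CPM in DMSO and 278 ± 16.7 CPM in NCD (SD, n = 3 each). Its rise of 0.89 ± 0.07 (edgeR adjusted p = 3.63e-06) was under the fold threshold, which 1 gene of the list passed upwards with library totals.

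Metallothioneins also bind copper, and of 15 copper handling genes 14 were tested and 4 were called lower, with a median log2 fold change of -0.34. These calls were 28.6% of the tested copper genes. Over all tested genes 31% were called in either direction and 17.5% lower. COMMD1, a factor in copper export, fell from 15.8 ± 1.65 to 1.74 ± 0.157 CPM (SD, n = 3 each), a log2 fold change of -3.18 ± 0.14 (SE; edgeR adjusted p = 1.46e-07). ATP7A, the copper-exporting ATPase, was at -1.47 ± 0.23 (edgeR adjusted p = 0.000385) and SCO1, which delivers copper to cytochrome oxidase, at -1.36 ± 0.08 (adjusted p = 8.03e-07). COMMD1 spans 259 kb, ATP7A 140 kb and SCO1 25.9 kb, and the part of gene length in these falls was not tested. SOD1, the copper- and zinc-dependent superoxide dismutase and the most abundant of those not called, rose by 0.32 ± 0.11 (edgeR adjusted p = 0.0254). A single copper gene was called higher without NCD replicate 3, and 2 were with library totals.

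**Figure D5:**
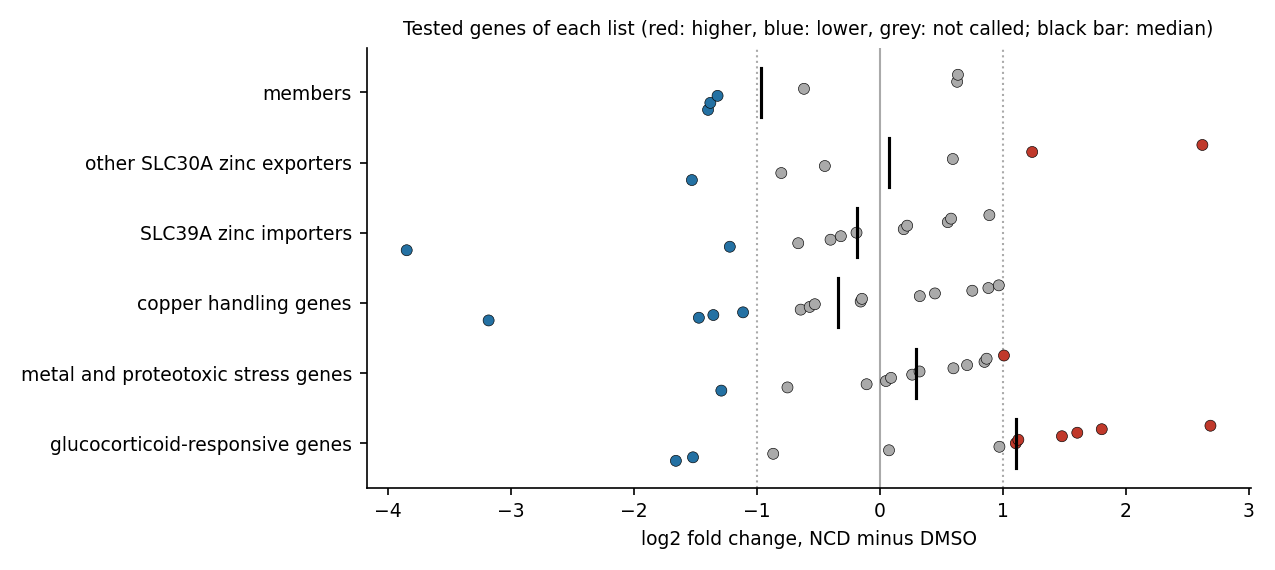
Log2 fold change (NCD minus DMSO) of each tested gene by list, with red for genes called higher, blue for genes called lower, grey for genes not called, a black bar for the median of the list and dotted lines at the fold threshold. The 3 called members lie together below -1, while both kinds of zinc transporter spread over either side of 0 and 6 of 11 glucocorticoid-responsive genes lie above 1. Over all tested genes 13.5% were called higher and 17.5% lower.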

How the data were processed

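RNA from 3 DMSO and 3 NCD samples was sequenced by the authors. The authors deposited expected counts per Ensembl gene, made by alignment with HISAT2 and estimation with RSEM, and not normalized. The submitters' processing notes name GRCh38 (hg38). The annotation release, strandedness and tool versions are not given in the sources used here. In each library 25 lines without a gene were skipped, and 62666 of 63241 identifiers had a symbol. Coordinates and transcripts came from GENCODE release 29 (GRCh38), promoters from RefSeq (GRCh38.p14).

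Estimated counts were rounded and fitted with edgeR 4.0.16 in R 4.3.3 (filterByExpr, TMM factors from 0.911 to 1.09, glmQLFit and glmQLFTest). The SE is the absolute log2 fold change over the square root of F. Genes were called at a Benjamini-Hochberg adjusted p below 0.05 over all tested genes and an absolute log2 fold change above 1. The code of the fit was first run on simulated counts with few changed genes of random sign. That run does not test how the scaling behaves with as many changes as here. Alternatives were DESeq2 1.42.0, library totals in place of TMM, fits with no low-count filter or with 10 or more counts in each library, calls without the fold threshold, fold changes with a prior count of 2, a replicate block, and omission of single libraries. Exact tests used scipy 1.17.1 and figures matplotlib 3.10.9.

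The members and lists were chosen with earlier results of these data known. Named genes are the 9 members, up to 3 called rises and 3 called falls of each related list with its most abundant gene not called, and the 3 genes of most similar profile for MT2A and SLC30A1. Neighbours of the cluster were added later. Intervals and limits cover counting error only. The other experiments of the study were not analysed here.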

Additional observations from a re-analysis of the deposited data

How the results depend on the processing

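All 6 tested members kept their direction under every alternative run, and an adjusted p below 0.05 under every alternative with a test except MT1F with library totals (-0.42); that scaling raised the median of all genes by 0.20, and its part was not tested further. MT2A, MT1E and MT1X were called in every fit. Without the fold threshold 6 members counted, 2 of them higher, as did 10602 genes in all (5393 higher, 5209 lower) and 46 genes of the related lists (26 higher, 20 lower). At least 10 counts in every library left 1376 higher genes, with fewer tested, against 2067. Library totals gave 15 higher genes in the related lists, against 9 as reported, and the part of the 0.20 rise in the median was not tested. The summed metallothionein log2 ratio was -1.19 with library totals, -1.34 without MT2A, and -1.48 to -1.26 without each library.

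The replicate numbers were shared by the groups. After group means were removed, same-numbered libraries correlated at 0.368, -0.332 and 0.015, which differ in sign. With so few libraries and no reference value, these cannot show whether the libraries were paired. In the fit with the replicate block 4723 genes were called, and log2 fold changes were -1.41 for MT2A, -1.38 for MT1E, -1.33 for MT1X, -0.62 for MT1F, 0.64 for MTF1 and 0.63 for SLC30A1. Depth limits MT1A and MT1F, with at most 10 and 141 counts per library.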

Other observations

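Glucocorticoids are a known further input to metallothionein genes, and 11 of 12 listed glucocorticoid-responsive genes were tested. With NCD 6 were called higher and 2 lower (5 or 6 higher with each library left out), 72.7% of the tested genes of this list. Over all tested genes 31% were called, 13.5% higher and 17.5% lower. The median log2 fold change was 1.10 for the list and 0.04 over all tested genes. TSC22D3, a mediator of glucocorticoid action, was at 9.94, 9.51 and 11.1 CPM in DMSO and 67.1, 64.5 and 65.6 CPM in NCD (2.69 ± 0.08 on the log2 scale, SE; edgeR adjusted p = 2.65e-08). DUSP1, a MAP kinase phosphatase, rose by 1.80 ± 0.07 (edgeR adjusted p = 9.41e-08) and PER1, a clock gene, by 1.60 ± 0.12 (adjusted p = 2.94e-06). NR3C1, the glucocorticoid receptor, fell from 96.1 ± 7.27 to 33.5 ± 4.37 CPM (SD, n = 3 each), a log2 fold change of -1.52 ± 0.10 (edgeR adjusted p = 1.69e-06). ERRFI1, an inhibitor of the EGF receptor, was at -1.66 ± 0.06 (edgeR adjusted p = 4.63e-08). FKBP5, the most abundant of those not called, was at -0.87 ± 0.07 (edgeR adjusted p = 7.68e-06). NR3C1 spans 158 kb, FKBP5 155 kb and ERRFI1 21.9 kb, and the part of gene length in these falls was not tested.

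All 12 listed genes of metal and protein-damaging stress were tested, and 1 was called higher and 1 lower, with a median log2 fold change of 0.29. These calls were 16.7% of the list, against 31% of all tested genes. At adjusted p alone 6 were higher and 2 lower, compared with 35.3% higher and 34.1% lower among all tested genes. HMOX1, the haem-degrading enzyme, was at 20.9, 17.5 and 17.5 CPM in DMSO and 39.8, 38.9 and 33.6 CPM in NCD (1.01 ± 0.10 on the log2 scale, SE; edgeR adjusted p = 2.57e-05), just past the fold threshold. The count of higher genes was 0 with DESeq2, under the filter of 10 counts, and in each fit that left out replicate 2 or 3 of DMSO or replicate 1 or 2 of NCD, and it was 3 with library totals. TXNRD1, a thioredoxin reductase, fell from 903 ± 16.6 to 369 ± 10.9 CPM (SD, n = 3 each), a log2 fold change of -1.29 ± 0.06 (edgeR adjusted p = 1.37e-07). TXNRD1 spans 135 kb, and the part of gene length in its fall was not tested. HSPH1, a chaperone and the most abundant of those not called, was at 0.09 ± 0.11 (edgeR adjusted p = 0.503).

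Likeness to a member was measured as the root mean square difference of centred log2(CPM + 1) profiles over the 6 libraries, among 10777 other genes with a symbol and a mean of at least 5 CPM. The closest to MT2A were AP4S1 (0.052), MAD1L1 (0.081) and RALY (0.082). Of the other tested metallothioneins MT1E was at 0.049, while MT1X at 0.097 and MT1F at 0.443 were further from MT2A than these genes. The closest to SLC30A1 were HPS5 (0.027), PALB2 (0.039) and EBLN3P (0.039), with MTF1 at 0.073.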
